A study of Mus musculus with 2 samples.

Results

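The genes described here are 8 members of the mouse MS4A family, Ms4a4a, Ms4a4b, Ms4a4c, Ms4a4d, Ms4a6b, Ms4a6c, Ms4a6d and Ms4a7, out of 34714 genes in the deposited expression table. They were chosen by name, and all 8 were found in the table. The samples were bone marrow-derived macrophages from C57BL/6 mice, which are cells grown out of flushed marrow in macrophage colony-stimulating factor at 20 ng/mL. One group was exposed for 24 h to FGK45, a monoclonal antibody that activates the receptor CD40, and is called anti-CD40 below. The other group received IgG for the same time. There was 1 library for each treatment. Differences are therefore descriptions of these 2 libraries, without a test, and the labels do not say how many mice or cultures stood behind a library.

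MS4A proteins pass through the cell membrane several times, and many of them sit beside signalling receptors and tune what these do. The best-known relatives are Ms4a1, which encodes the B cell antigen CD20, and Ms4a2, which encodes the beta chain of the high-affinity IgE receptor on mast cells and basophils. In macrophages the human protein MS4A4A was found next to the fungal sensor dectin-1, variants near human MS4A4A and MS4A6A are linked to Alzheimer's disease and to the amount of soluble TREM2, and mouse Ms4a7 is used to tell border-associated and marrow-derived macrophages of the brain from microglia.

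Ms4a7 was by far the most abundant member in both libraries. The 3 members at the highest levels, Ms4a7, Ms4a6c and Ms4a6d, were each 1.24 to 1.27 times as high with anti-CD40 as with IgG. Ms4a6b was the only measured member that was lower with anti-CD40, and Ms4a4d was listed at 0 in both libraries. None of the 8 was 1.5-fold higher or lower. Among all genes at 1 FPKM or more, a level that 6 of the members reached, 2.68% were 1.5-fold higher and 2.15% were 1.5-fold lower. With shares this small, a count of 0 does not set the members apart from other genes.

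Levels are given in FPKM, the fragments of a transcript scaled by its length and by the size of the library. Differences are given as ratios of FPKM, anti-CD40 over IgG, or on the log2 scale after adding 1 FPKM to each value, which understates the difference of low genes. Steps in the values of low genes imply 6.16 gigabases of aligned sequence with anti-CD40 and 5.58 gigabases with IgG, and approximate numbers of fragments per gene follow from these. The 95% intervals below are exact intervals on those fragment numbers (Poisson for a level, conditional binomial for a ratio). They cover counting error only, not the variation of cultures. Over the 9591 genes that reached 1 FPKM with either treatment, the median log2 ratio was 0.12. Over the 9101 genes that reached it with both, the median ratio of FPKM was 1.11. The median gene was thus slightly higher with anti-CD40, which is called the general shift below, and a member's ratio is to be read against it. The sum over all genes was lower with anti-CD40, at 529103.5 against 547362 with IgG. FPKM is a relative measure, so the general shift depends on how the libraries are scaled.

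The cultures carried macrophage transcripts throughout. All 15 macrophage markers of a list of commonly used genes were at 1 FPKM or more, and their summed level was 21289 FPKM with anti-CD40 and 19119 FPKM with IgG. The lysozyme gene Lyz2 led them, at 13423 FPKM with anti-CD40 and 11326 FPKM with IgG, and had the widest gap between the libraries in FPKM. The complement genes C1qa, C1qb and C1qc and the Fc receptor gene Fcgr1 were lower with anti-CD40, C1qb most, at 1955 FPKM with anti-CD40 and 2623 FPKM with IgG. NK cell markers summed to 0.273 FPKM with anti-CD40 and 0.202 FPKM with IgG, with 8 of 9 listed at 0 in both libraries. Mast cell and basophil markers summed to 1.0 FPKM with anti-CD40 and 1.1 FPKM with IgG. Monocyte markers summed to 7.35 FPKM with anti-CD40 and 7.54 FPKM with IgG. B cell markers summed to 2.94 FPKM with anti-CD40 and 3.02 FPKM with IgG. Neutrophil markers summed to 2.6 FPKM with anti-CD40 and 1.59 FPKM with IgG, with 6 of 10 listed at 0 in both libraries. Most of the neutrophil sum was S100a8, at 1.82 FPKM with anti-CD40 and 1.11 FPKM with IgG. S100a8 held some 18 fragments with anti-CD40 and 10 with IgG, and the interval of its ratio ran from 0.713 to 3.95. Dendritic cell markers summed to 335 FPKM with anti-CD40 and 226 FPKM with IgG, of which Bst2, also an interferon-induced gene, made up 309 FPKM with anti-CD40 and 193 FPKM with IgG. The other 2 dendritic cell markers at 1 FPKM or more were lower, Batf3 at 8.88 FPKM with anti-CD40 and 14.1 FPKM with IgG and Itgax at 16.6 FPKM with anti-CD40 and 18.9 FPKM with IgG. The part of these cell types in the members' values was not tested. In a bulk library, fewer cells of a type and less RNA per cell cannot be told apart.

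Ms4a7 (RefSeq, GRCm38, chromosome 19, 11321039 to 11336146, minus strand) stood at 615 FPKM with anti-CD40 and 494 FPKM with IgG. The counting intervals of these levels, 605 to 625 with anti-CD40 and 485 to 504 with IgG, did not overlap. Its mean level ranked 146 among all 34714 genes. The ratio was 1.24, with an interval from 1.21 to 1.28 that lies above the median ratio of all genes. On the log2 scale the difference was 0.31, and 19.3% of the genes at 1 FPKM or more had a higher one. Ms4a7 held 87.9% of the summed level of the 8 members with anti-CD40 and 87.8% with IgG, so its share barely differed between the libraries. Shares of minor members could differ more, as for Ms4a6b with 0.48% under anti-CD40 and 0.687% under IgG. The value of Ms4a7 was 15.6 times that of Ms4a6c in the anti-CD40 library and 15.6 times that of Ms4a6c in the IgG library.

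Ms4a6c (chromosome 19, 11469353 to 11487182, plus strand), in mouse blood a gene typical of monocytes, had 39.5 FPKM with anti-CD40 and 31.7 FPKM with IgG. Its ratio was 1.24, with an interval from 1.15 to 1.35, and rested on some 1491 fragments in the anti-CD40 library and 1086 in the IgG library. Ms4a6d (chromosome 19, 11586606 to 11604804, minus strand), a mouse gene expressed in macrophages, had 35.3 FPKM with anti-CD40 and 27.8 FPKM with IgG. The ratio of Ms4a6d was 1.27, with an interval from 1.13 to 1.42. For both genes the interval lay above the median ratio of all genes, although that of Ms4a6d began at 1.1, just under it, when the fragment numbers were based on its shortest coding transcript. Ms4a6c and Ms4a6d were close to each other in level, and their intervals overlapped in each library, from 37.5 to 41.5 against 32.8 to 37.9 with anti-CD40 and from 29.9 to 33.7 against 25.5 to 30.3 with IgG. Ms4a6c overlaps the noncoding gene BE692007, which lies wholly within it on the opposite strand and had 2.55 FPKM with anti-CD40 and 2.91 FPKM with IgG. The strand setting of the libraries is not given in the sources used here, so reads of this pair may not be told apart, and the share this has in either value was not tested.

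**Figure D1:**
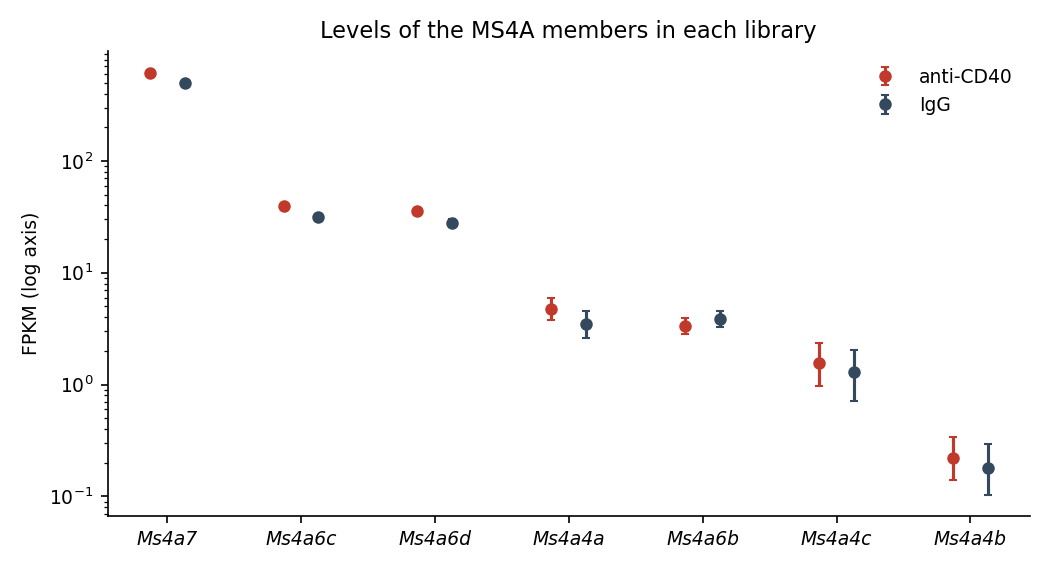
Levels of the 7 members above 0 in the anti-CD40 library (left point of each pair) and the IgG library (right point), in FPKM on a log axis, with 95% Poisson counting intervals where wider than the point. Ms4a7 stands at 615 FPKM with anti-CD40 and 494 FPKM with IgG, far above Ms4a6c and Ms4a6d, and Ms4a4b is lowest at 0.221 FPKM with anti-CD40 and 0.181 FPKM with IgG.

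Ms4a6b (chromosome 19, 11518559 to 11530403, plus strand), best known from mouse T cells, had a ratio under 1, unlike the other Ms4a6 members. It had 3.36 FPKM with anti-CD40 and 3.86 FPKM with IgG. The intervals of these levels overlapped, at 2.83 to 3.93 with anti-CD40 and 3.29 to 4.52 with IgG. Its ratio was 0.869, and the interval from 0.687 to 1.09 includes 1 but lies below the median ratio of all genes. With fragment numbers based on its shortest coding transcript, the interval ended at 1.13 and included the median ratio. On the log2 scale its difference of -0.16 was lower than that of 83.3% of the genes at 1 FPKM or more. Ms4a6c was 11.8 times as high as Ms4a6b with anti-CD40 and 8.21 times as high with IgG. The summed level of Ms4a6b, Ms4a6c and Ms4a6d was 78.1 FPKM with anti-CD40 and 63.4 FPKM with IgG, and Ms4a6b made up 4.3% of it with anti-CD40 and 6.09% with IgG.

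Ms4a4a (chromosome 19, 11375488 to 11392915, plus strand), the mouse counterpart of the human macrophage gene MS4A4A, had the highest ratio of the members. It stood at 4.75 FPKM with anti-CD40 and 3.5 FPKM with IgG, a ratio of 1.36. With some 82 fragments in the anti-CD40 library and 54 in the IgG library, the interval ran from 0.963 to 1.98 and includes both 1 and the median ratio of all genes. At this depth a difference from the general shift was not detectable for Ms4a4a. Ms4a4a and Ms4a6b lay at similar levels, and their order differed between the libraries, with Ms4a4a 1.42 times as high as Ms4a6b under anti-CD40 and 0.905 times as high under IgG. Their level intervals overlapped in each library, at 3.8 to 5.93 for Ms4a4a and 2.83 to 3.93 for Ms4a6b with anti-CD40, and at 2.61 to 4.53 for Ms4a4a and 3.29 to 4.52 for Ms4a6b with IgG.

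Ms4a4c (chromosome 19, 11404717 to 11427246, plus strand), which has been listed among the interferon-induced genes of mouse leukocytes, had 1.57 FPKM with anti-CD40 and 1.29 FPKM with IgG. Its ratio of 1.22 rested on some 22 fragments in the anti-CD40 library and 16 in the IgG library, and the interval from 0.624 to 2.54 leaves the direction undetermined. Ms4a4c overlaps the pseudogene Gm5692 on the opposite strand by 106 bases. Of 17 measured interferon-induced genes at 1 FPKM or more, 3 had a log2 ratio above the median of all genes, and their median was -0.19. Oas1a, an antiviral oligoadenylate synthetase, stood at 64.7 FPKM with anti-CD40 and 137 FPKM with IgG.

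Ms4a4b (chromosome 19, 11443558 to 11463549, plus strand), a gene of mouse T cells and NK cells, was the lowest of the members above 0. It had 0.221 FPKM with anti-CD40 and 0.181 FPKM with IgG, a ratio of 1.22 with an interval from 0.624 to 2.54. This ratio rested on some 22 fragments in the anti-CD40 library and 16 in the IgG library, as that of Ms4a4c did. The lengths behind these numbers were 4750 bases for Ms4a4b and 687 bases for Ms4a4c. The CD3 chain genes Cd3d, Cd3e and Cd3g, which define T cells, and the coreceptor gene Cd8a were listed at 0 in both libraries. They are among the 5 of 11 measured T cell markers at 0 in both. Lck, at 0.334 FPKM with anti-CD40 and 0.478 FPKM with IgG, was above Ms4a4b. Cd5 had 0.0559 FPKM with anti-CD40 and 0.156 FPKM with IgG. Of the 14 markers listed, those for the T cell receptor chains were not in the table. The 11 measured T cell markers summed to 30.9 FPKM with anti-CD40 and 29.6 FPKM with IgG, nearly all of it from Il7r, at 26.5 FPKM with anti-CD40 and 25.9 FPKM with IgG, and Cd4, at 3.94 FPKM with anti-CD40 and 3.04 FPKM with IgG. Ms4a4d (chromosome 19, 11536794 to 11558466, plus strand) was listed at 0 with either treatment; in such a table a 0 may also be an estimate that failed. The summed level of the 4 Ms4a4 genes was 6.55 FPKM with anti-CD40 and 4.97 FPKM with IgG. The ratio of these sums was 1.32. An interval for the 4 genes, from 0.981 to 1.73, was computed on their pooled fragments, 125 with anti-CD40 and 87 with IgG. Pooling gives the long Ms4a4b more weight than the FPKM sum does, so the interval is only approximate for that ratio.

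**Figure D2:**
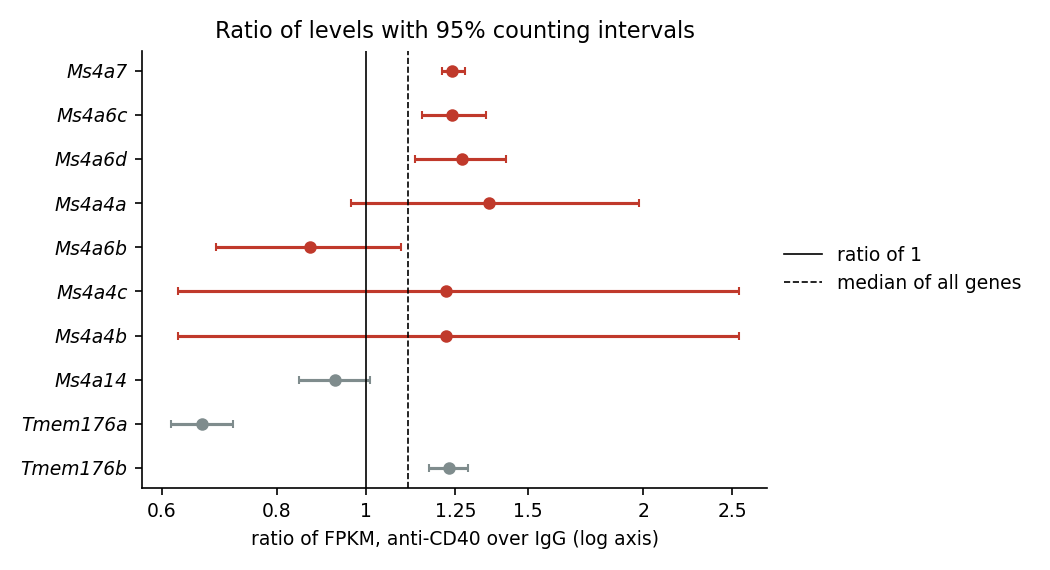
Ratio of FPKM, anti-CD40 over IgG, on a log axis for the 7 members above 0 (red) and 3 related genes (grey), with 95% conditional binomial counting intervals; the solid line marks a ratio of 1 and the dashed line the median ratio of all genes, 1.11. The intervals of Ms4a7, Ms4a6c and Ms4a6d lie to the right of both lines, and that of Ms4a6b crosses the line at 1 but ends left of the dashed line.

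Of the 8 members, 6 reached 1 FPKM in at least 1 library, and 5 of these 6 were higher with anti-CD40. Among all genes at that level 67.8% were higher with anti-CD40, so the direction of most members was also that of most genes. The median log2 ratio of the 6 was 0.31, with a range from -0.16 to 0.36, and that of all genes was 0.12. By construction 50% of all genes lie above that median, and 5 of the 6 members did. No member was 2-fold higher or lower either, a difference that 0.25% of all genes showed upward and 0.313% downward. The counting interval lay wholly above a ratio of 1 for 3 of the 6 members and for 35.2% of the 9321 genes with an annotated length. It lay wholly below 1 for 0 of the 6 members and for 14.2% of genes. It lay wholly above the median ratio for 3 of the 6 members and for 18.0% of genes, and wholly below the median ratio for 1 member, Ms4a6b, and for 23.6% of genes. With the shortest coding transcripts these counts of members were 2 above and 0 below. Genes with more fragments have narrower intervals, and the 3 members above the median ratio are the 3 most abundant.

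**Figure D3:**
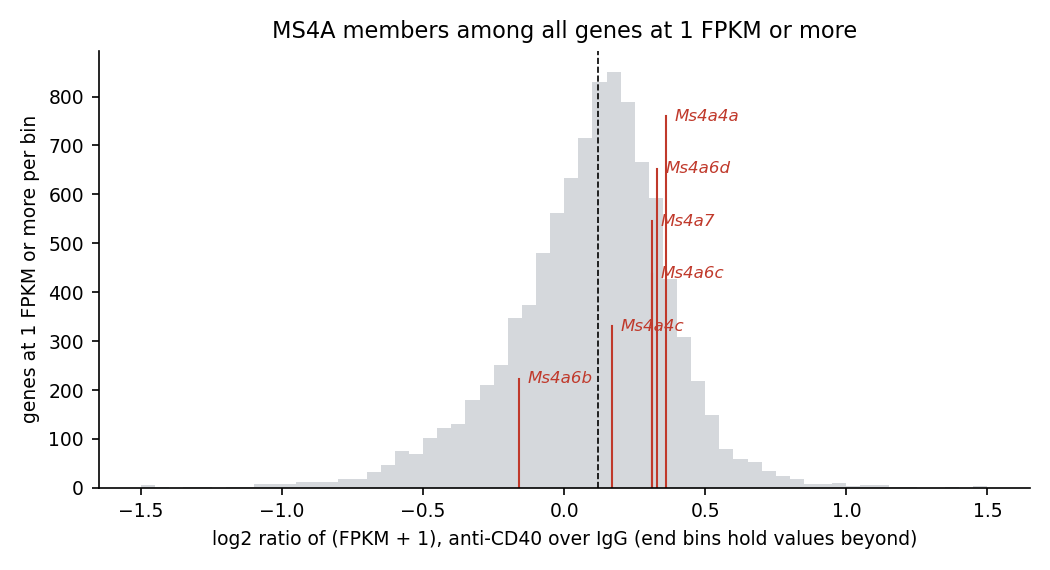
Distribution of the log2 ratio of FPKM + 1, anti-CD40 over IgG, over the 9591 genes at 1 FPKM or more, as numbers of genes per bin, with the 6 members at that level as red lines (line height has no meaning) and the median of all genes, 0.12, as a dashed line. Ms4a7, Ms4a6c, Ms4a6d and Ms4a4a stand between 0.31 and 0.36, on the right shoulder of the distribution, and Ms4a6b stands at -0.16.

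The 8 genes lie next to each other on chromosome 19, from 11321039 to 11604804, a stretch of 284 kb that holds 13 annotated genes. Ms4a7 and Ms4a6d, at the ends of the stretch, are on the minus strand and the 6 genes between them on the plus strand. Level did not follow position. Ms4a6b and Ms4a4d are 6.39 kb apart and stood at 3.36 FPKM and listed at 0 with anti-CD40, and at 3.86 FPKM and listed at 0 with IgG. Ms4a6c lies 5.8 kb from Ms4a4b and was the second most abundant member, whereas Ms4a4b was the least abundant of those above 0. Of the 5 genes of the stretch that are not members, 2 are in the table. These are BE692007 and Gm8369, a gene known only by a model name, which had 0.0528 FPKM with anti-CD40 and 0.0511 FPKM with IgG.

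**Figure D4:**
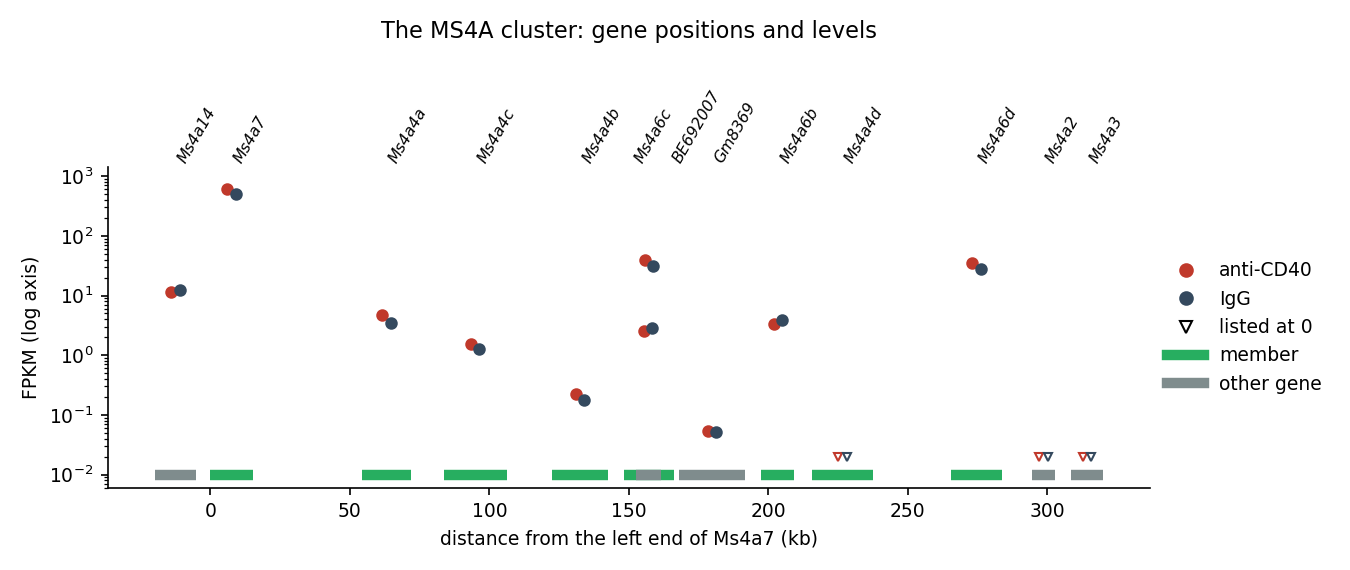
Level of each gene of the cluster in FPKM on a log axis (red for anti-CD40, blue for IgG, open triangles for genes listed at 0) against its distance in kb from the left end of Ms4a7, with gene bodies as bars along the bottom, green for members. High and low genes lie side by side: Ms4a4b, at 0.221 FPKM with anti-CD40 and 0.181 FPKM with IgG, is next to Ms4a6c, at 39.5 FPKM with anti-CD40 and 31.7 FPKM with IgG.

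Because close copies can exchange reads, the similarity of the members bears on their values. Among coding sequences of the GENCODE annotation, compared over aligned bases, Ms4a4b and Ms4a4c were the most alike, with 91.7% identical bases over 678 aligned. Ms4a4d was 87.9% identical to Ms4a4c and 85.6% to Ms4a4b. Ms4a4a, although it carries the same number, was only 68.2% to 69.9% identical to the other Ms4a4 genes. Within the Ms4a6 genes, Ms4a6b was 86.4% identical to Ms4a6c and 81.8% to Ms4a6d, and Ms4a6c and Ms4a6d were 79.6% identical. These values leave gaps out. With gaps counted, Ms4a6b was closer to Ms4a6d, at 80.1%, than to Ms4a6c, at 74.7%, and Ms4a6c and Ms4a6d stood at 67.2%. Ms4a7 was 64.0% to 68.9% identical to the other members. The longest run of identical bases between any pair of members was 127, between the transcripts of Ms4a4b and Ms4a4c, followed by 96 between Ms4a6b and Ms4a6c. Both are shorter than the 150 bases taken here as the read length, which is an assumption. In low genes 150 and 300 aligned bases were among the most frequent whole numbers, but in few genes. With anti-CD40, 150 came up in 4 and 300 in 6 of 121 genes with whole numbers. With IgG, 150 came up in 5 and 300 in 2 of 104, and 450 in 3. Shorter pieces of reads could still be placed on either copy, so the single values of Ms4a4b, Ms4a4c and Ms4a6b are less certain than the sums of their subfamilies.

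**Figure D5:**
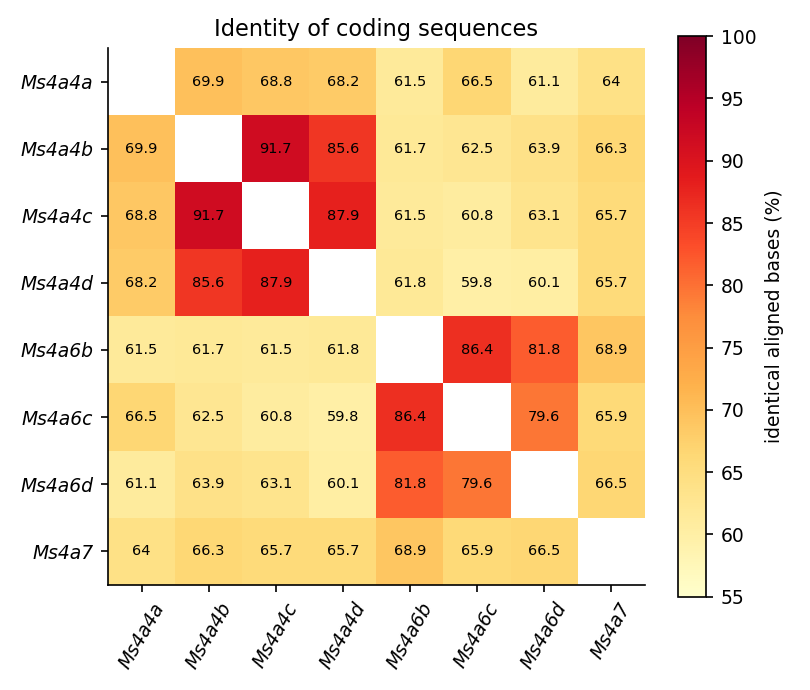
Percent of identical bases in pairwise global alignments of the coding sequences of the 8 members, counted over aligned bases without gaps. Ms4a4b, Ms4a4c and Ms4a4d form a block of 85.6% to 91.7% and the 3 Ms4a6 genes a block of 79.6% to 86.4%, whereas Ms4a4a and Ms4a7 reach at most 69.9% with any member.

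Promoter windows of 300 bases, 250 before and 50 after an annotated start, were taken from RefSeq (GRCm38.p6) for 7 of the 8 members. Ms4a6c and Ms4a6b are shown as a pair because these close copies differed most in level within their subfamily and their ratios lay on opposite sides of 1. Capitals mark every run of at least 15 bases that occurs in the partner's window too. The lines give Ms4a6c at chr19:11469118-11469417 and Ms4a6b at chr19:11518309-11518608, both on the plus strand. The window of Ms4a6c is built on a start 15 bases inside the gene's outer end, and that of Ms4a6b on the outer end itself.
Ms4a6c: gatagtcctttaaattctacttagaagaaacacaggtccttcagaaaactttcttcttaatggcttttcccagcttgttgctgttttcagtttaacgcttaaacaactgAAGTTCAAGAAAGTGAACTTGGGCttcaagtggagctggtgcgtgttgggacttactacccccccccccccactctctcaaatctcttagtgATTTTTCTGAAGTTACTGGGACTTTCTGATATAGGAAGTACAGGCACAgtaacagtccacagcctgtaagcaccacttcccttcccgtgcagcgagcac
Ms4a6b: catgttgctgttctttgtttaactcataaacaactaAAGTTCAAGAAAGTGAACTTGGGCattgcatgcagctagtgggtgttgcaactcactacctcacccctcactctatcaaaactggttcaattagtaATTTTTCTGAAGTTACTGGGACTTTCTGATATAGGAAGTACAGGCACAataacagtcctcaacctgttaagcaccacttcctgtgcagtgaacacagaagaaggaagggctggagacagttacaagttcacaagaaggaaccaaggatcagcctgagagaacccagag
The shared runs covered 72 bases of each window, and the longest was 48 bases. It ended 2 bases before the start on which the Ms4a6c window is built and 71 bases before that of Ms4a6b. Measured from the outer end of Ms4a6c, 15 bases further out, the run crosses the start.

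Ms4a4c and Ms4a4b are shown because they were the closest pair in coding sequence. Both had a ratio of 1.22, at levels in FPKM that differed 7.12-fold with anti-CD40 and 7.14-fold with IgG. Each ratio rested on some 22 fragments with anti-CD40 and 16 with IgG, and its interval from 0.624 to 2.54 leaves the direction undetermined. The lengths used were 687 bases for Ms4a4c, whose coding transcripts run from 361 to 1723 bases, and 4750 bases for Ms4a4b. The windows are chr19:11407411-11407710 for Ms4a4c and chr19:11443308-11443607 for Ms4a4b, both on the plus strand, with the same use of capitals. The window of Ms4a4c is built on an inner start, 2.94 kb inside the outer end of the gene, and that of Ms4a4b on the outer end.
Ms4a4c: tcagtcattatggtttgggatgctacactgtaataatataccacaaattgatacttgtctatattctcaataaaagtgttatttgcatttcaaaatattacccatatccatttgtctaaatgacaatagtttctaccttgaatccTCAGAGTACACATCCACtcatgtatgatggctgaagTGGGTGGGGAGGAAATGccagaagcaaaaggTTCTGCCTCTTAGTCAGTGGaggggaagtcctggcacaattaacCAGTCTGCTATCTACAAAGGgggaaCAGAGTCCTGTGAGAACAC
Ms4a4b: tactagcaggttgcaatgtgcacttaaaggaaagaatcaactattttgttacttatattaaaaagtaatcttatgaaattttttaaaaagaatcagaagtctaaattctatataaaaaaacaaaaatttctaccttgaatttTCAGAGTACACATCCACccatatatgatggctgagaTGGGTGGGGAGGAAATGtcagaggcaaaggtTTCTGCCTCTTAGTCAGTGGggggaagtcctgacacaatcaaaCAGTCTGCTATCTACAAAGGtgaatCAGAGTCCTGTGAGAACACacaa
Shared runs covered 93 bases of each window, with a longest run of 20 bases. Here the shared part lay at nearly the same distance from the starts on which the windows are built, for one such run from 38 to 19 bases before the inner start of Ms4a4c and from 41 to 22 bases before the start of Ms4a4b.

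Ms4a4a, the member with the highest ratio, and Ms4a7, the most abundant, are shown with capitals on matches to short motifs. The letters searched on both strands were GAAA followed by any 2 bases and GAAA for the interferon response element, TGANTCA for AP-1, GAGGAAGT for PU.1, TTGCNNAA for C/EBP, GGGA followed by any 2 bases and TTCC for NF-kB, with a narrower form that asks for T at the second of these bases, and TATAAA for the TATA box. The window of Ms4a4a is chr19:11375238-11375537 on the plus strand. Those of Ms4a7, on the minus strand, are chr19:11336097-11336396 at the outer start and chr19:11334646-11334945 at an inner start.
Ms4a4a: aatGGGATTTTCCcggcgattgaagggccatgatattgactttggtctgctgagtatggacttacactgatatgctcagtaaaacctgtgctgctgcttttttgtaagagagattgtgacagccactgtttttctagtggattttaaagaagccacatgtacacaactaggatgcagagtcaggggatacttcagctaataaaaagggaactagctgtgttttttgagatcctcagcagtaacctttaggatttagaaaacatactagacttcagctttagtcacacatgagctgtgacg
Ms4a7 outer start: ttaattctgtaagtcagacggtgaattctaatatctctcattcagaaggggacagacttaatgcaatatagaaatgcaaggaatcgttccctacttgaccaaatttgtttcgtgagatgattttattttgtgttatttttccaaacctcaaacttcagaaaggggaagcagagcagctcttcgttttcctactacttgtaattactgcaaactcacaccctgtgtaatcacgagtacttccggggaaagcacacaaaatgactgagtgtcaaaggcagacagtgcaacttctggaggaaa
Ms4a7 inner start: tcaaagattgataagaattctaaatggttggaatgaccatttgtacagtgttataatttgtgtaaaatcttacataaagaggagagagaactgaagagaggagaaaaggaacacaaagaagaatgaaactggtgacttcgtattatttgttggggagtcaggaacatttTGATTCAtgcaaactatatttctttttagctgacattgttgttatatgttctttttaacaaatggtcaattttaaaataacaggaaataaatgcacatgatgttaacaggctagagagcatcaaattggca
The window of Ms4a4a held 1 match, to both forms of the NF-kB letters, beginning 247 bases before the start. Of all 32851 promoter windows, 1.47% held the wider form and 0.411% the narrower one. The inner window of Ms4a7 held the AP-1 letters, as did 7.81% of all windows, and its outer window held none of the motifs. Of the other members, Ms4a4b held AP-1 and TATA box letters, Ms4a4d held C/EBP letters, and Ms4a4c, Ms4a6b and Ms4a6c held none. The interferon letters were in 3.44% of all windows, the PU.1 letters in 3.2%, the C/EBP letters in 10.8% and the TATA box letters in 13.6%. A match is a description of the letters and not a site of binding. The windows of the members held 31.7% to 46.7% G and C, against a median of 52.7% over all windows. Of all windows, 28.4% were at or below the members' highest value.

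Of the wider family, 17 further symbols were looked up and 15 were in the table, of which 10 were listed at 0 in both libraries, Ms4a2 among them. CD20, encoded by Ms4a1, stood at 0.0448 FPKM in the anti-CD40 library and at a listed 0 in the IgG library, and Ms4a15 was listed at 0 with anti-CD40 and had 0.00909 FPKM with IgG. Ms4a14 lies 5.16 kb from Ms4a7 on the same strand and had 11.6 FPKM with anti-CD40 and 12.5 FPKM with IgG. Its ratio was 0.926, with an interval from 0.846 to 1.01, below that of its neighbour. Ms4a7 was 52.9 times as high as Ms4a14 with anti-CD40 and 39.4 times as high with IgG.

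Tmem176a and Tmem176b, which encode membrane proteins related to the MS4A family and lie on chromosome 6, were on opposite sides. Tmem176b had 209.7 FPKM with anti-CD40 and 170.5 FPKM with IgG, a ratio of 1.23 with an interval from 1.17 to 1.29, close to that of Ms4a7. Tmem176a had 72.6 FPKM with anti-CD40 and 109.5 FPKM with IgG, a ratio of 0.663 with an interval from 0.613 to 0.717, and only 2.14% of genes at 1 FPKM or more had a lower log2 ratio. It was the 1 gene of the wider family past 1.5-fold. Tmem176b was 2.89 times as high as Tmem176a with anti-CD40 and 1.56 times as high with IgG. Tmem176a lies wholly within the annotated span of Tmem176b on the opposite strand, so reads of the pair may not be told apart.

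Receptors and adaptors linked to MS4A proteins were compared as a list of 13 genes, of which 12 were at 1 FPKM or more. Their median log2 ratio was 0.13, close to the 0.12 of all genes, 6 of the 12 lay above it, and none was 1.5-fold apart. Trem2, the lipid-sensing receptor whose soluble form is linked to human MS4A4A, had 1837 FPKM with anti-CD40 and 2296 FPKM with IgG, a ratio of 0.8 with an interval from 0.789 to 0.811. Its adaptor gene Tyrobp had 1322 FPKM with anti-CD40 and 1343 FPKM with IgG, and Fcer1g, the adaptor that in mast cells assembles with Ms4a2, had 2989 FPKM with anti-CD40 and 3165 FPKM with IgG. Fcer1a, the IgE-binding chain, was listed at 0 in both libraries. Cd9, a tetraspanin, had the highest log2 ratio of the list, at 138 FPKM with anti-CD40 and 98.6 FPKM with IgG. Clec7a, the gene of dectin-1, had 68.6 FPKM with anti-CD40 and 57.3 FPKM with IgG. Clec7a, Fcer1a, Cd3d, Cd3e, Cd3g, Cd8a, C1qa and Fcgr1 fall outside the rule for named genes and were named after their values were seen.

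With 2 libraries, likeness between genes can only mean a similar level in both. The genes nearest to Ms4a7, by Euclidean distance between log2 values of FPKM + 1 over the 2 libraries, were Oaz1 at a distance of 0.0565, Mpeg1 at 0.0851 and Itm2b at 0.0887. Mpeg1, which encodes the pore-forming protein perforin-2 of macrophages, had 649 FPKM with anti-CD40 and 505 FPKM with IgG. The genes nearest to Ms4a4a were Ppfibp2, Tnpo3 and Pik3cg, at distances of 0.0157, 0.0259 and 0.0293.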

How the data were processed

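The authors' deposited values, 1 per gene in each library, were read as FPKM. The header names no unit. That reading rests on StringTie, which the submitters' processing notes name beside HISAT2 2.1.0 and mm10, and on column sums (529103.5 with anti-CD40, 547362 with IgG) that differ, as TPM sums would not. For the annotation, the strand setting and filters, nothing is stated in these sources. RNA (1.3 ug) was prepared with TruSeq, per the labels' protocols.

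Depth came from single-exon genes of equal RefSeq and GENCODE (release M21) length whose FPKM times length was under 150. Their aligned bases came out whole, within 0.05 bases, for 20 of 24 genes (anti-CD40) and 9 of 9 (IgG) at 6.16 and 5.58 gigabases. A wider set of 357 and 289 genes peaked at 6.1608 and 5.577 gigabases, with 33.9% and 36.0% whole. The best other depth gave 62.5% and 66.7%, or 23.5% and 23.2% in the wider set. A fragment was taken as 300 bases, an assumption that sets the width of the intervals, and a gene's length as the median of its coding transcripts. The median gene at 1 FPKM or more held about 330 fragments (anti-CD40) and 267 (IgG). These numbers assume that the unit is FPKM.

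Values were compared on log2(FPKM + 1), with a filter at 1 FPKM in either library. Counts use 1.5-fold and 2-fold. All 8 members and the wider family were named, with the 4 most abundant and the extreme genes of each list available for naming, genes between the members, and the 3 genes nearest to Ms4a7 and Ms4a4a. The members and lists were chosen with earlier results of these data known. Alternatives were other pseudocounts, scalings and filters. Python 3.11.15, scipy 1.17.1 and Biopython 1.88 were used; alignments were global, with a match of 1, a mismatch of -1, a gap opening of -3 and an extension of -0.5. Promoters came from RefSeq.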

Additional observations from a re-analysis of the deposited data

How the results depend on the processing

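The counts of members 1.5-fold or 2-fold higher or lower stayed at 0 under all 8 alternatives. The median log2 ratio of the members at 1 FPKM or more, 0.31 as reported, ranged from 0.16 (upper-quartile scaling) to 0.36 (libraries rescaled to equal sums or to TPM-like sums), and it was 0.24 without the filter. The summed Ms4a6 log2 ratio, 0.30 as reported, was 0.17 after centring on the median of all genes and 0.15 after upper-quartile scaling. Centring subtracts the general shift by construction. Upper-quartile scaling instead equalises the upper quartile of genes above 0 in either library, and the median log2 ratio of all genes came out at 0.0. Ms4a4b was the only member whose sign turned, to -0.07 after centring against 0.05 as reported. Ms4a6b stayed below 0 in every setting, from -0.28 to -0.09, and Ms4a4a, Ms4a4c, Ms4a6c, Ms4a6d and Ms4a7 stayed above 0. A filter at 5 FPKM leaves only Ms4a7, Ms4a6c and Ms4a6d. No paired analysis was possible because each group holds 1 library, and for the same reason no library could be left out. In an alternative chosen after seeing the data, with the shortest coding transcript as length, 2 members instead of 3 had an interval above the median ratio and 0 instead of 1 (Ms4a6b) below it. With the longest, the counts were 3 and 1. Depth limits Ms4a4a, Ms4a4b and Ms4a4c most, whose intervals of the ratio include 1.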
